A study of Mus musculus with 12 samples.

Results

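YTHDF2 RNA immunoprecipitation (RIP) was compared with total input RNA in mouse hippocampal neurons, to describe which kinds of mRNA and non-coding RNA were over- or under-represented in the YTHDF2-bound fraction. The members were chosen by their labels alone and were the 3 YTHDF2 RIP and 3 Input libraries, 6 of the 12 libraries of the series. The other 6 were YTHDF1 RIP and YTHDF3 RIP libraries, which are used only to show where YTHDF2 differed. All libraries came from primary cultures of C57BL/6 newborn hippocampi, pooled over both sexes and kept for 14 days in culture with a pulse of Ara-C against dividing cells. No genotype, drug or stimulus separated the groups. According to the methods, lysates of 3 wells were pooled per replicate and divided among the RIPs, which then shared 1 Input. RIP used a monoclonal antibody against YTHDF2, and a precipitation with a control antibody was not analysed here. A difference from Input therefore cannot be told apart from what beads and washing retain or lose.

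N6-methyladenosine (m6A) is the most common internal modification of mRNA. It is read by proteins of the YTH family, whose cytoplasmic members YTHDF1, YTHDF2 and YTHDF3 hold the modified base in a pocket of their YTH domain. YTHDF2 is best known for recruiting the CCR4-NOT deadenylase and so shortening the life of methylated mRNAs. In mammalian mRNA, m6A is found mostly near stop codons, in 3′ untranslated regions and in long internal exons, within a short consensus of which GGACT is a common form.

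Libraries held between 6020072 and 9259893 counts in YTHDF2 RIP and between 9092494 and 13833973 in Input. The libraries of the other RIPs were deeper, with 10037804 to 38909592 counts. Rank correlations of levels in CPM, counts scaled to a fixed library total, over 17126 tested genes were 0.962 to 0.978 among the YTHDF2 RIP libraries, 0.944 to 0.974 among the Input libraries and 0.867 to 0.907 between the groups. Neuron markers were abundant, their summed level over 9 genes running from 3021 to 5209 CPM in Input and from 2357 to 4405 in YTHDF2 RIP. The 7 astrocyte markers summed to 1032 to 3454 CPM in Input and 1721 to 2418 in YTHDF2 RIP. The 5 microglia markers stayed at or below 3.96 CPM in sum and the 3 endothelial markers at or below 2.46, and no marker was at 0 in all 6 libraries. Input replicate 1 stood apart from the other Input libraries in glial RNA. The 6 markers of the oligodendrocyte lineage summed to 18.1 CPM there against 153 and 151 in the other Input libraries and 256 to 421 in YTHDF2 RIP, and Pdgfra, the receptor that marks oligodendrocyte precursors, was at 0.533 CPM there against 79.5 and 96.9. YTHDF3 RIP replicate 1 was likewise low, with a sum of 19.3 CPM against 265 and 296 in the other YTHDF3 RIP libraries. YTHDF1 and YTHDF2 RIP replicate 1 were not, at 222 and 266 CPM. Libraries numbered 1 thus differed in glial RNA, and whether they came from a shared lysate was not tested. None of the tested markers of glia passed the test against Input. Their part in the results below was not tested, and counts are given also without Input replicate 1 for all genes and for the lists and classes where they moved most.

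Against Input, 2693 genes were enriched in YTHDF2 RIP and 3247 were depleted, which is 15.7% and 19.0% of the 17126 genes tested (34.7% together). A gene was called with edgeR's quasi-likelihood test at an adjusted p of at most 0.05, with the small minimum fold change that the study's methods set for RIP over Input. Without Input replicate 1, the same test called 1929 enriched and 2641 depleted genes. Of these, 1874 and 2553 were among the genes called with all libraries. All YTHDF2 RIP libraries lay above all Input libraries for 4331 genes (25.3%) and below them for 4712 (27.5%).

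Enrichment rose with the length of the coding sequence. Among 13448 protein-coding genes with an annotated coding sequence, enriched genes had a median coding length of 2421 nt, genes without a call 1479 nt and depleted genes 705 nt. Of 403 genes whose coding sequence was longer than 6000 nt, 62.0% were enriched and 1 gene was depleted, with a median log2 fold change of 1.05. Of 1159 genes with a coding sequence of up to 500 nt, 2.59% were enriched and 53.8% depleted, with a median of -1.09. The share enriched rose and the share depleted fell from each of the 8 classes of coding length to the next. The median log2 fold change, which does not depend on calls, rose from class to class as well.

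**Figure D1:**
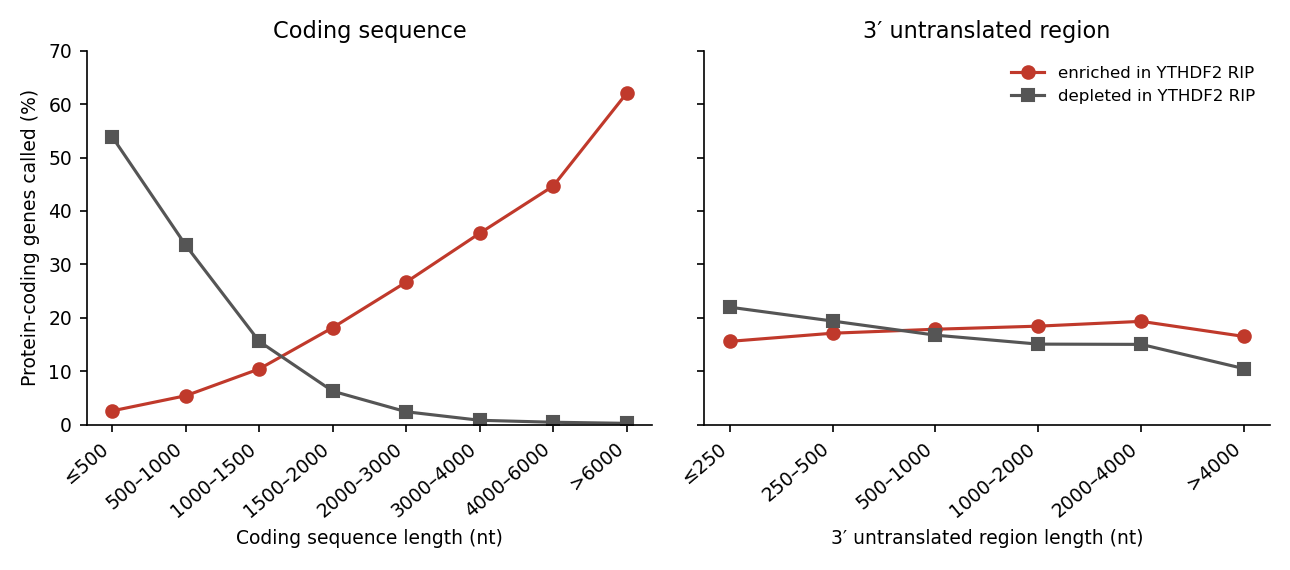
Percent of tested protein-coding genes called enriched (red circles) or depleted (grey squares) in YTHDF2 RIP against Input, by the length in nt of the coding sequence (left) and of the 3′ untranslated region (right). With coding length the share enriched climbs from 2.59% to 62.0%, whereas with the length of the 3′ untranslated region it stays between 15.6% and 19.3%.

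The length of the 3′ untranslated region was related less closely to the difference from Input than coding length was. The median log2 fold change was -0.04 for 3′ untranslated regions of up to 250 nt and 0.07 for those longer than 4000 nt, and the share of enriched genes ranged from 15.6% to 19.3%. The share of depleted genes was 22.0% at the short end and 10.5% at the long end. Across genes, Spearman's rho of the log2 fold change was 0.575 with coding length, 0.413 with transcript length and 0.051 with the length of the 3′ untranslated region (n = 13448 genes, which are not independent replicates). It was 0.319 with the number of exons, 0.320 with the length of the longest internal exon and 0.147 with GC content. For coding length, the 3 YTHDF2 RIP libraries gave rho of 0.552, 0.481 and 0.580 against the Input mean. Each Input library set against the other Input libraries gave 0.024, 0.117 and -0.080.

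Among 2980 genes of like coding length, over 1000 and up to 1500 nt, the median log2 fold change lay between -0.12 and -0.03 in every class of 3′ untranslated region. Among the 1068 genes with a coding length over 4000 nt it was 0.80 to 0.98 up to a 3′ untranslated region of 4000 nt and 0.55 beyond it, where 25.6% of 82 genes were enriched. Removing the trend with exonic length from each library before the fit left a rho of 0.400 with coding length, with 28.0% of genes over 6000 nt enriched and 42.9% of genes up to 500 nt depleted.

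The GGACT motif, taken as a plain match of letters, was searched on the sense strand of the longest coding transcript of each gene and was present in 91.6% of 13448 transcripts. Transcripts with more than 7 copies were enriched in 38.2% of genes and those with none in 7.11%. Within coding lengths over 1000 and up to 1500 nt the same shares were 13.5% (178 genes) and 6.98% (215 genes), with median log2 fold changes of 0.07 and -0.18. Copies per kilobase had a rho of 0.099 with the log2 fold change. A match to these letters is a description and not a mapped m6A site.

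Y RNAs, BC1 and other short transcripts of RNA polymerase III were among the most depleted RNAs, and the sequences of 3 are shown here because they carry some of the largest differences of the comparison. They come from GENCODE M21 on the GRCm38 build, are written as DNA, and lie at chr6:47788069-47788180 on the minus strand (Rny1), chr6:47781624-47781725 on the plus strand (Rny3) and chr7:144914470-144914637 on the plus strand (Bc1). Capitals mark the closing run of T, the usual end signal of polymerase III, in the Y RNAs, and the longest run of A in Bc1.
Rny1: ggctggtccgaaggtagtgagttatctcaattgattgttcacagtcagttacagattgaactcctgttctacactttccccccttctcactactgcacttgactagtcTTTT
Rny3: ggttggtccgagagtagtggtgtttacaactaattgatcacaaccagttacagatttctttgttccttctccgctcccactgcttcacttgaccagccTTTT
Bc1: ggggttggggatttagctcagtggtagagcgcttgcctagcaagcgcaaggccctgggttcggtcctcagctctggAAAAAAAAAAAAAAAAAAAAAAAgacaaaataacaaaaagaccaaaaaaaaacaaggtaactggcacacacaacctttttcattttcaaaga
None of the 3 holds GGACT.

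Rny1, which encodes a Y RNA bound by the Ro60 protein, was at 54.6, 88.4 and 86.3 CPM in Input and at 0.133, 1.05 and 0.894 in YTHDF2 RIP. Its log2 fold change was -6.78 ± 0.89 (SE, adjusted p = 0.00041, edgeR). In YTHDF2 RIP replicate 1 this value rests on few counts. Rny3 went from 187, 292 and 413 CPM to 1.99, 4.48 and 6.15, a log2 fold change of -6.13 ± 0.83. Bc1, the dendritic non-coding RNA of rodent neurons that represses translation, was at 311, 262 and 148 CPM in Input and 2.13, 1.64 and 4.92 in YTHDF2 RIP (log2 fold change -6.34 ± 0.71, adjusted p = 0.00025, edgeR). These 3 RNAs were also lower than in YTHDF1 RIP, by 2.71, 3.70 and 2.02 on the log2 scale, with adjusted p of 0.0391, 0.00397 and 0.0333 in edgeR. For Rny1 that call was lost with library size alone, with the replicate block, with only both groups fitted and without YTHDF1 RIP replicate 1 or 2 or any YTHDF2 RIP library, and for Bc1 with library size alone, with the block and without YTHDF1 RIP or YTHDF2 RIP replicate 1 or 2.

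The RNA components of stable particles were depleted as well. Rn7s1 and Rn7s2, the 7SL RNAs of the signal recognition particle, are near-identical copies that share reads, and stood at 39360 to 43890 CPM in Input and 941 to 2266 in YTHDF2 RIP, a log2 fold change of -4.82 for each. Gm47305 and Gm47287, annotated as miRNA genes, lie inside the 7SL genes on the same strand and moved with them (-4.80). Rn7sk, the 7SK RNA that holds the elongation factor P-TEFb, fell by 3.34 on the log2 scale. Rpph1, the RNA of ribonuclease P, fell by 5.28, and the protein-coding gene Ccnb1ip1, which overlaps it on the same strand, had nearly the same counts in every library, so that its fall cannot be told apart from that of Rpph1. Vaultrc5, a vault RNA, fell by 5.81, from 10.1 to 15.6 CPM in Input to at most 0.447 in YTHDF2 RIP, where it rests on very few counts. Rmrp, the RNA of ribonuclease MRP, went from 440, 587 and 485 CPM to 109, 128 and 129 (log2 fold change -2.05 ± 0.68, adjusted p = 0.035, edgeR). Its call was lost when any 1 of the 6 libraries was left out. Of 45 tested polymerase III genes 11 were depleted, none was enriched and the median was -1.48, beside 0.02 over all genes. Rmrp stands in the annotation as 2 overlapping entries with the same counts, and both are among the 11. The other 34 tested genes of the list were 5S rRNA entries. In the rRNA class as a whole none of 41 tested genes passed the test, although the median was -1.30.

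Copies of U1, the small nuclear RNA that recognises 5′ splice sites, were depleted in part. The 6 U1 genes with a symbol of their own had a median log2 fold change of -3.21, with quartiles of -3.49 and -1.78, and 4 of them were called. Rnu1b1 fell by 3.57 on the log2 scale, a call that was lost without YTHDF2 RIP replicate 1. Over the whole class of small nuclear RNAs, 20 of 54 tested genes were depleted and none was enriched, and 9 were depleted without Input replicate 1. Of 79 tested snoRNA genes 6 were enriched and none depleted, all of them below 4 CPM on average in YTHDF2 RIP.

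**Figure D2:**
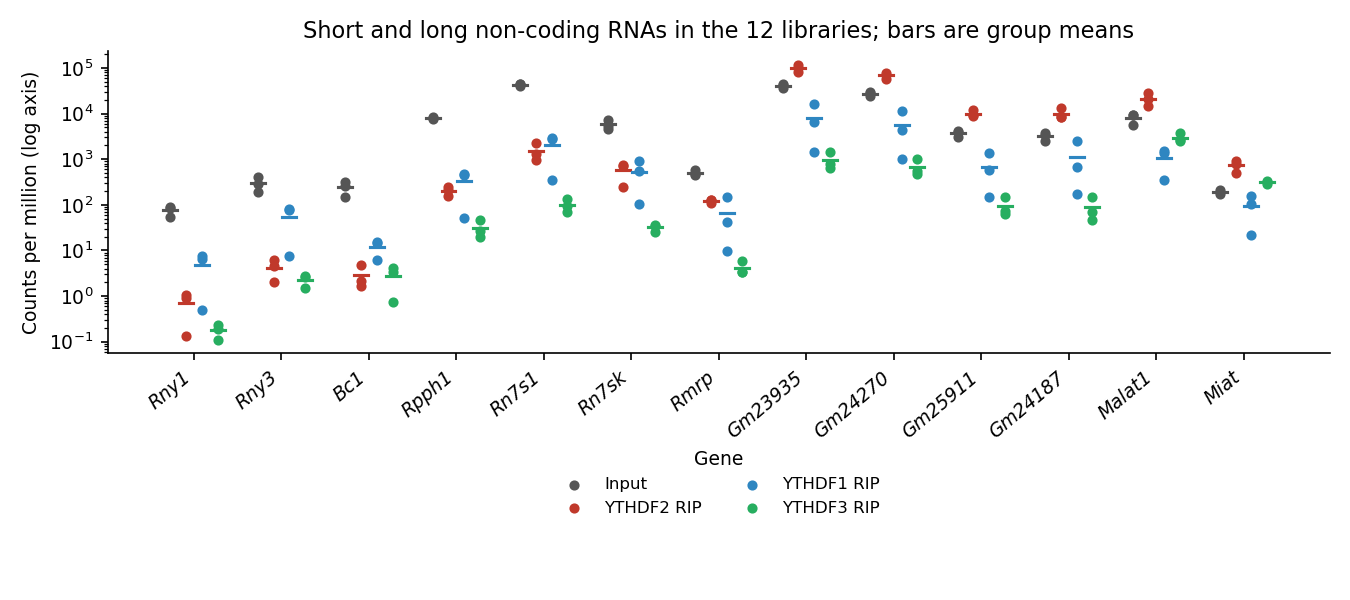
CPM (log axis, not scaled by length, so to be read within a gene) of 13 non-coding RNAs in the 12 libraries, with a point per library and a bar at each group mean. YTHDF2 RIP libraries lie below Input for the Y RNAs, Bc1, Rpph1, Rn7s1, Rn7sk and Rmrp, and above both other RIPs for the Gm23935 group and Malat1.

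Reads at a group of very short loci annotated as miRNA genes took up a large part of the YTHDF2 RIP libraries, and its sequences are shown because they set these libraries apart from the other RIPs. They are Gm23935 (chr16:11144125-11144181, plus strand), Gm24270 (chr9:56223715-56223771, minus strand), Gm24187 (chr13:9834469-9834525, minus strand) and Gm25911 (chr1:167340369-167340424, minus strand), all on GRCm38 from GENCODE M21. Gm24270 was identical to Gm23935. Gm24187 differed by G11A and Gm25911 by G14A and 1 missing base, counted from the 5′ end of Gm23935, and capitals mark the substituted base.
Gm23935: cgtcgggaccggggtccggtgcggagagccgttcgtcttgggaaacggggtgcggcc
Gm24270: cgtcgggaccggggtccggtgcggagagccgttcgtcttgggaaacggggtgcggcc
Gm24187: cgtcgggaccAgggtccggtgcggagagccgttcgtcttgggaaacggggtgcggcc
Gm25911: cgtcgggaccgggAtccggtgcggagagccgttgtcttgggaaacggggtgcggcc
Reads that align to several of them were counted at each, so their levels are not independent. The reference tables do not settle which RNA these reads come from, so the values below describe reads counted at these loci.

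Gm23935 was at 43240, 44290 and 35530 CPM in Input and at 82400, 100800 and 118600 in YTHDF2 RIP. All YTHDF2 RIP libraries were above all Input libraries, but the log2 fold change of 1.29 ± 0.66 did not pass the test (adjusted p = 0.15, edgeR), and the same held for Gm24270 (1.34), Gm25911 (1.41) and Gm24187 (1.62). In the other RIPs Gm23935 was far lower, at 1408 to 16150 CPM in YTHDF1 RIP and 626 to 1432 in YTHDF3 RIP. YTHDF2 RIP exceeded YTHDF1 RIP by 3.64 ± 0.72 and YTHDF3 RIP by 6.73 ± 0.83 on the log2 scale, with adjusted p of 0.0032 and 0.0021 (edgeR). Together the 4 loci made up 7.50% of all counts in Input and 19.8% in YTHDF2 RIP on average. Lars2, a mitochondrial leucyl-tRNA synthetase gene, and the miRNA gene Mir6236 had the same order over the 4 groups. Their log2 fold changes against Input were 1.22 and 1.69, neither past the test, and they exceeded YTHDF3 RIP by 6.57 and 6.59. Mir6240 passed the test against Input as well, going from 5.86, 8.20 and 5.25 CPM to 17.4, 28.1 and 36.7 (log2 fold change 2.08 ± 0.54, adjusted p = 0.012, edgeR), a call lost without YTHDF2 RIP replicate 3.

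As a share of the library, protein-coding genes made up 63.2% ± 1.30 in Input and 72.2% ± 2.81 in YTHDF2 RIP (SD, n = 3 libraries each). The class of miscellaneous RNA, which holds 7SL, 7SK and the Y RNAs, went from 10.2% ± 0.805 to 0.535% ± 0.165, and the ribozyme class from 0.849% ± 0.0683 to 0.0342% ± 0.0051. Pseudogenes went from 4.53% ± 0.469 to 2.13% ± 0.227 and long non-coding RNA (lncRNA) from 2.50% ± 0.388 to 4.04% ± 0.521. In each of these 5 classes the groups did not overlap, and the exact two-sided permutation test gave p = 0.1, the smallest that 3 against 3 libraries allow (adjusted p = 0.157 over 11 classes). The miRNA class held 18% ± 0.729 in Input and 20.5% ± 2.73 in YTHDF2 RIP, with overlapping groups (exact permutation p = 0.4). Its make-up differed between the groups. The 4 short loci of the Gm23935 group were 41.7% of this class in Input and 96.3% in YTHDF2 RIP. Gm47305 and Gm47287, inside the 7SL genes, were each 21.4% of it in Input and 0.69% in YTHDF2 RIP.

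These shares depend on overlapping genes, since a read on overlapping genes was counted for each. With such genes left out, the difference turned to -6.31 percentage points for protein-coding genes and -0.51 for lncRNA, grew to 11.9 for the miRNA class and shrank to -1.20 for miscellaneous RNA. For pseudogenes it was -3.59, beside -2.40 with all genes. Among the gene classes with over 100 tested genes, pseudogenes had the highest share of depleted genes, with 803 of 1849 depleted and 76 enriched and a median log2 fold change of -0.99. With the length trend removed 430 were depleted and 223 enriched, with a median of -0.20. Most were processed pseudogenes, copies of mature mRNA without introns (745 of 1592 depleted). Of 137 with a ribosomal protein symbol, 101 were depleted, none was enriched and the median was -2.45. Reads of a parent mRNA can be counted at such copies, so these values are not separate from those of the parents.

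**Figure D3:**
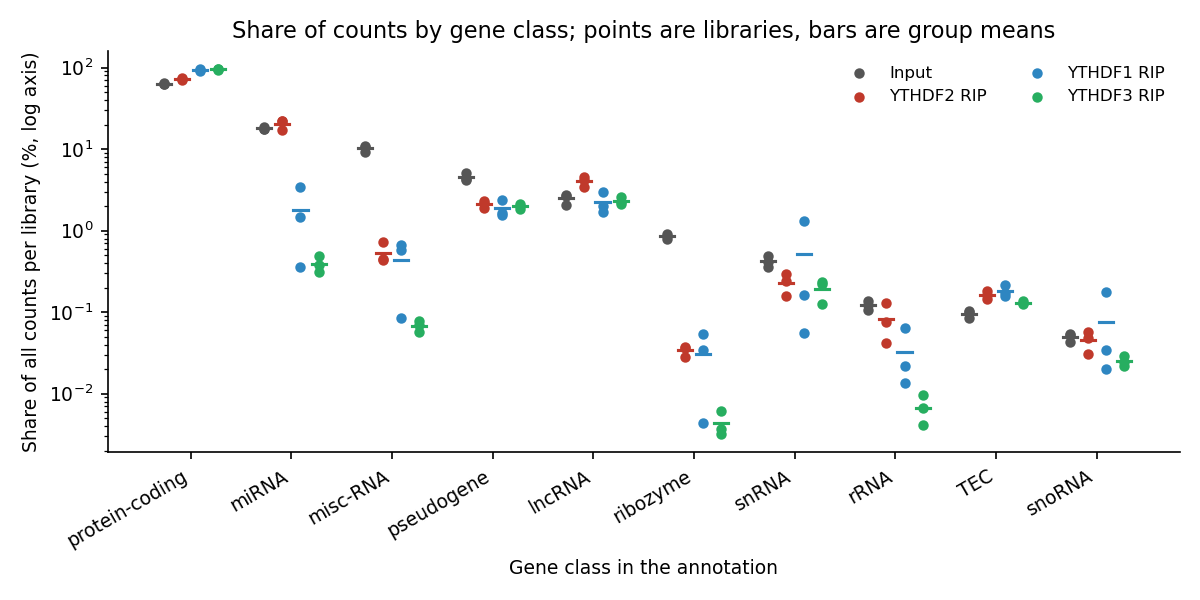
Share of all counts per library in each gene class of the annotation (percent, log axis), with a point per library and a bar at each group mean. Miscellaneous RNA falls from 10.2% in Input to 0.535% in YTHDF2 RIP, and the miRNA class lies between 17.4% and 22.3% in YTHDF2 RIP but is at or below 3.46% in both other RIPs.

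Some long non-coding RNAs usually found in the nucleus were among the enriched transcripts. Xist, which coats the inactive X chromosome, was at 2.59, 6.96 and 2.68 CPM in Input and at 24.1, 36.9 and 96.5 in YTHDF2 RIP (log2 fold change 3.67 ± 0.74, adjusted p = 0.0031, edgeR). Peg13, an imprinted lncRNA of the brain, rose from 63.9, 51.6 and 73.6 CPM to 332, 574 and 398, a log2 fold change of 2.79 ± 0.26. Miat, a lncRNA of neuronal nuclei, rose from 208, 189 and 175 CPM to 789, 896 and 498 (1.93 ± 0.51). The call of Miat was lost with the length trend removed. Malat1, an abundant lncRNA of nuclear speckles, was at 9379, 9362 and 5746 CPM in Input and at 21070, 14590 and 27540 in YTHDF2 RIP (1.37 ± 0.49, adjusted p = 0.049, edgeR). Its libraries did not overlap, but the call was lost when Input replicate 1, 2 or 3 or YTHDF2 RIP replicate 1 or 3 was left out. Meg3 (1.02) and Neat1 (1.98) did not pass the test. Among 12 tested nuclear and imprinted lncRNAs, 5 were enriched and 1, Pantr1, was depleted (-1.62). Over all 945 tested lncRNA genes, 115 were enriched (12.2%) and 74 depleted (7.83%), beside 15.7% and 19.0% of all genes. Their median was 0.19, and without Input replicate 1 72 were enriched and 48 depleted. Gm26870 had the highest value (5.62), which rested on YTHDF2 RIP replicate 3 with 39.7 CPM against 3.72 and 5.23 in the others, and its call was lost without that library.

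Malat1 was higher than in YTHDF1 RIP by 4.28 and than in YTHDF3 RIP by 2.83 on the log2 scale. Gm27694, a short entry inside Malat1 that shares its reads, differed likewise by 4.30 and 2.54. For both, the call against YTHDF3 RIP was lost without YTHDF3 RIP replicate 2. Miat exceeded YTHDF1 RIP by 2.97 (adjusted p = 0.00171, edgeR) but its difference from YTHDF3 RIP of 1.21 did not pass the test.

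Among called protein-coding genes with a mean of at least 100 normalised counts over the 6 libraries, Eln, Ahnak2, Usp35 and Armcx4 were strongly enriched. They were picked for their high fold changes among genes whose groups did not overlap. That mean takes in the YTHDF2 RIP libraries, and Eln and Ahnak2 were low in Input. Eln, which encodes elastin of elastic fibres, was at 3.50, 7.10 and 9.21 CPM in Input and at 77.8, 129 and 150 in YTHDF2 RIP. Its log2 fold change was 4.18 ± 0.43 (adjusted p = 0.00022, edgeR). Eln was at 3.62 to 18.7 CPM in the other RIPs, and YTHDF2 RIP exceeded them by 2.93 (YTHDF1) and 4.35 (YTHDF3) on the log2 scale. Ahnak2, a very large scaffold protein, went from 6.55, 2.34 and 2.79 CPM to 66.6, 72.3 and 62.2 (4.09 ± 0.67). Usp35, a deubiquitinase, went from 7.0, 16.0 and 17.2 CPM to 88.2, 122 and 118 (3.03 ± 0.32) and was also higher than in YTHDF1 RIP by 2.42 and in YTHDF3 RIP by 2.36. Armcx4, of a family of armadillo repeat proteins on the X chromosome, rose from 122, 96.6 and 74.3 CPM to 717, 717 and 760 (2.90 ± 0.25). Rtl1, an imprinted gene derived from a retrotransposon, rose by 2.80 on the log2 scale.

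**Figure D4:**
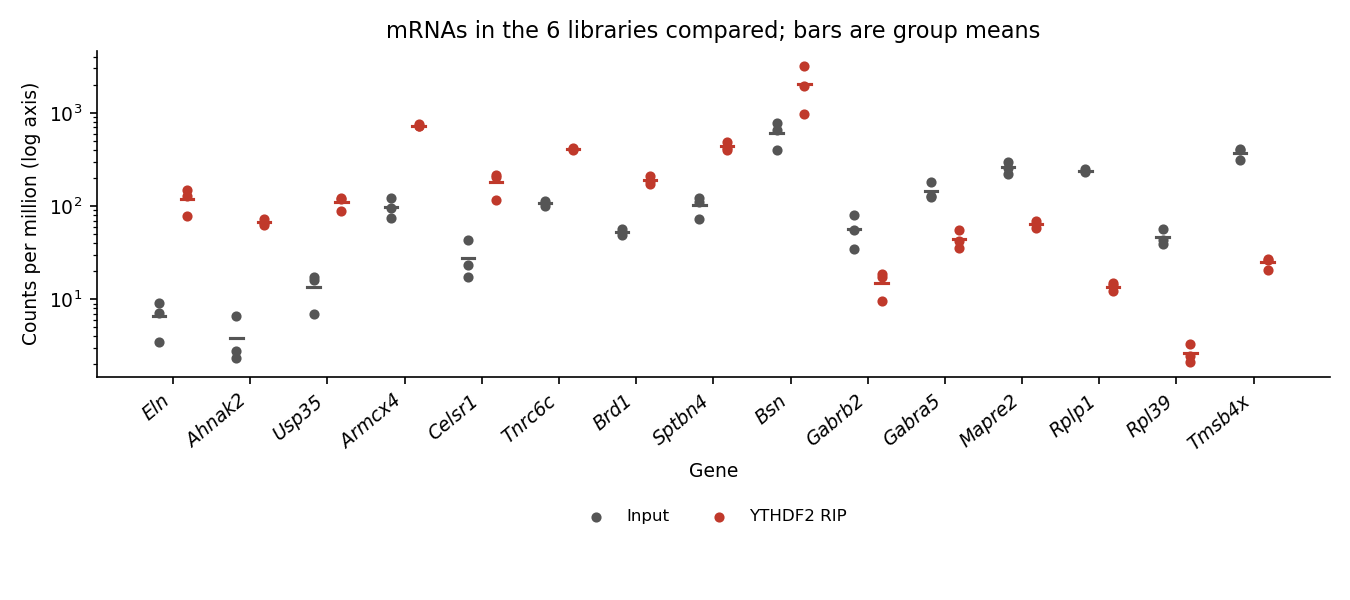
CPM (log axis, not scaled by length) of selected mRNAs in the 3 Input (grey) and 3 YTHDF2 RIP (red) libraries, with a bar at each group mean. The groups do not overlap for any of them, which was a condition of the choice for all but Gabra5. Eln, at 3.50 to 9.21 CPM in Input and 77.8 to 150 in YTHDF2 RIP, is the most enriched and Rpl39 and Rplp1 are the most depleted.

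Most mRNAs of cytosolic ribosomal proteins were depleted. Of 81 tested cytosolic ribosomal protein genes 64 were depleted and none was enriched, with a median log2 fold change of -2.0. Rplp1, an acidic stalk protein of the large subunit, went from 240, 250 and 232 CPM to 12.2, 14.8 and 14.1, a log2 fold change of -4.14 ± 0.49 (adjusted p = 0.00029, edgeR). Rpl39 went from 39.2, 43.0 and 57.0 CPM to 2.13, 3.29 and 2.46 (-4.15). These coding sequences are short, with a median of 453 nt. Protein-coding genes of the same length classes, which include these genes, had a median log2 fold change of -1.09. With the length trend removed 62 of the ribosomal protein genes were called depleted, as were 42.9% of all coding sequences up to 500 nt. The part of length in this fall was not tested. Of 65 translation factors, 34 were depleted and 4 enriched. Eef1a1, the elongation factor that brings aminoacyl-tRNA to the ribosome, fell by 1.64, whereas Eif4g1, the large scaffold of the cap-binding complex, rose from 294, 311 and 306 CPM to 635, 604 and 774 (1.14 ± 0.18).

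Respiratory chain and mitochondrial ribosomal genes were mostly depleted, and so was a large part of the proteasome. Of 78 tested respiratory chain subunits 63 were depleted, and 2 were enriched, with a median of -1.64. Atp5e, the smallest subunit of ATP synthase, fell by 3.69 on the log2 scale. The enriched ones were Ndufv1 (1.09) and Ndufs1 (1.04), both catalytic core subunits of complex I. Of 78 mitochondrial ribosomal proteins 56 were depleted and none enriched, with a median of -1.04. Of 44 proteasome genes 20 were depleted, among them the core subunit Psmb6 (-1.68), and 2 were enriched, among them Psmd2 (0.80), a large subunit of the regulatory cap. Among 18 glycolytic enzymes 4 were depleted (22.2%, beside 19.0% of all genes), including Tpi1 (-1.59) and Gapdh (-1.58), and 2 were enriched. With the length trend removed 2 were depleted and none was enriched.

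Among cytoskeletal genes, the actin list was mostly depleted and the ankyrin and spectrin list mostly enriched. Of 9 tested genes for actin and small actin-binding proteins 7 were depleted and none enriched, led by Tmsb4x, which encodes an actin-sequestering peptide and went from 396, 314 and 407 CPM to 26.7, 27.2 and 20.8 (-3.90 ± 0.46). Actb fell by 1.48. Of 14 tubulin genes 7 were depleted and none enriched, but only 1 was depleted without Input replicate 1 and only 1 with the length trend removed. Of 8 ankyrins and spectrins, the long proteins of the membrane skeleton, 6 were enriched and none was depleted, and 2 were enriched with the length trend removed. Their median of 0.88 stood beside 1.05 for genes of the same coding length. Of all genes with a coding sequence over 6000 nt, 62.0% were enriched. Sptbn4, the spectrin of the axon initial segment, went from 122, 111 and 72.6 CPM to 491, 396 and 426 (2.10 ± 0.26). Among 51 kinesin and dynein genes, the heavy chain Dync1h1 rose by 1.69 while the light chains Dynlrb1 and Dynll1 fell by 2.85 and 1.63. In all 10 (19.6%) were enriched and 4 (7.84%) depleted, beside 15.7% and 19.0% of all genes. Among 22 microtubule-associated proteins 5 (22.7%) were depleted and 3 (13.6%) enriched, near the 19.0% and 15.7% of all genes. Mapre2 was at -2.03, Stmn2 at -1.77 and Dclk2 at 1.30. Without Input replicate 1, 3 of the 22 were depleted.

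Histone genes of the clusters differed by type. The 52 tested histone genes of the histone clusters outside H4 had a median log2 fold change of 0.52 and none was called, beside a median of -1.09 over all coding sequences of up to 500 nt. Over the whole list of 75 histone genes the median was 0.12 with 13 genes depleted, and it was -0.27 without Input replicate 1 and 0.50, with 5 depleted and 3 enriched, with the length trend removed. Of 13 H4 genes 9 were depleted, with a median of -1.92, and Hist1h4c had -2.44. Of the histone genes outside the clusters, 4 were depleted, led by H3f3a, which encodes the replacement histone H3.3 (-2.58). This split was made after the values were seen, and reads of near-identical histone copies were counted at each.

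Among synaptic lists, active zone and adhesion genes held more enriched than depleted members. Of 17 active zone scaffolds 8 were enriched and none was depleted, and with the length trend removed 2 were enriched and 2 depleted. Bsn, the giant scaffold bassoon, was at 790, 655 and 399 CPM in Input and at 1962, 982 and 3225 in YTHDF2 RIP (1.74 ± 0.60, adjusted p = 0.043, edgeR). Its call was lost when any library but YTHDF2 RIP replicate 2 was left out. The same held with the replicate block, with the length trend removed and with scaling on protein-coding genes. Of 23 neurexins, neuroligins and related adhesion proteins 10 were enriched, led by Slitrk1 (1.83), and none was depleted, with 6 enriched once the length trend was removed. Of 16 adhesion G protein-coupled receptors 8 were enriched and none depleted, and 5 were enriched with the length trend removed. Celsr1, a planar polarity cadherin, went from 17.4, 23.3 and 43.1 CPM to 117, 217 and 204 (2.69 ± 0.47). Of 57 vesicle and SNARE genes 11 were depleted, such as Snap29 (-2.01) and Vamp2 (-1.84), and 6 enriched, such as Stx2 (1.43) and Stxbp2 (1.70). These are 19.3% and 10.5%, near the 19.0% and 15.7% of all genes. Of 19 postsynaptic scaffolds, Shank3 (1.47) and Shank1 (1.22) were enriched (10.5%) and none was depleted, and with the length trend removed 2 were enriched and 3 depleted. The median of this list, 0.36, stood beside 0.41 for genes of the same coding length. The same values were 0.84 and 0.62 for active zone scaffolds and 0.63 and 0.41 for neurexins and related proteins. They were 1.03 and 0.75 for adhesion receptors and -0.32 and -0.07 for vesicle and SNARE genes.

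Several GABA receptor subunits were depleted, and glutamate receptors were close to all genes in their share of enriched members. Of 10 tested AMPA and NMDA receptor subunits 2 were enriched, Grin3a (1.11) and Gria2 (0.72), and of 12 kainate and metabotropic receptors 2 were enriched, Grik5 (1.11) and Grm7 (0.73), with none depleted in either list, which is 20% and 16.7% beside 15.7% of all genes. The medians of these lists, 0.41 and 0.46, stood beside 0.51 and 0.41 for genes of the same coding length. With the length trend removed no AMPA or NMDA subunit was enriched and 2 were depleted, and of the kainate and metabotropic receptors 1 was enriched and 1 depleted. The calls of Gria2, Grik5 and Grm7 were each lost without Input replicate 3 or YTHDF2 RIP replicate 3, among others. Of 14 GABA receptor subunits, the chloride channels and G protein-coupled receptors of inhibition, 7 were depleted and none was enriched, and their median of -1.23 stood beside -0.07 for genes of the same coding length. Gabrb2 went from 80.5, 55.8 and 34.5 CPM to 17.3, 9.56 and 18.6 (log2 fold change -1.91 ± 0.49, adjusted p = 0.011, edgeR). Gabra5 went from 180, 128 and 125 CPM to 35.6, 41.8 and 55.9 (-1.70 ± 0.30). For both subunits the highest YTHDF2 RIP library was below the lowest Input library, which for Gabrb2 was a condition of its choice. Gabra3 (-1.45), Gabrb1 (-1.31) and Gabra4 (-1.11) were among the others depleted. The calls of Gabrb1 and Gabra4 were lost without Input replicate 1 or 2 or YTHDF2 RIP replicate 2. That of Gabrb1 was also lost without YTHDF2 RIP replicate 1 and with the replicate block. Without Input replicate 1, 5 of the 14 were depleted, and with the length trend removed 12 were. Gabrb2 was lower than in both other RIPs, by 2.65 (YTHDF1) and 1.90 (YTHDF3) on the log2 scale, and Gabra2, at -0.94 against Input without a call, by 1.68 and 1.55. Against YTHDF3 RIP the call of Gabrb2 was lost with the replicate block and when any 1 library but YTHDF3 RIP replicate 3 was left out, and that of Gabra2 when any 1 of the 6 libraries was. The inhibitory neuron markers Gad1 and Gad2 had log2 fold changes of -0.39 and -1.44 without a call, and whether cell composition had a part in these values was not tested.

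Chromatin regulators and zinc finger genes held more enriched than depleted members. Of 75 chromatin regulators 40 were enriched and 2 depleted, with a median of 0.74, which is close to the 0.75 of all genes in their coding length classes. With the length trend removed 23 were enriched and 6 depleted. Brd1, a bromodomain scaffold of histone acetyltransferases, went from 52.4, 49.3 and 56.8 CPM to 184, 209 and 173 (1.83 ± 0.15). Kmt2d and Chd8 rose by 1.55 and 1.45, while Smarcd3, a small subunit of neuronal BAF complexes, fell by 1.36. Of 369 zinc finger genes 100 were enriched and 23 depleted, with a median of 0.28, and with the length trend removed 48 and 34. Of 22 immediate early genes 5 were enriched (22.7%, beside 15.7% of all genes), led by Ier5 (1.53), and none was depleted. Without Input replicate 1, 2 of the 22 were enriched. Fos (0.00) and Arc (0.83) did not pass the test. Hnrnpm, a splicing regulator, rose from 68.5, 81.6 and 93.0 CPM to 454, 623 and 373 (2.58 ± 0.30) and exceeded both YTHDF1 RIP (1.38) and YTHDF3 RIP (2.07). Among 78 genes of the extracellular matrix and integrins, 17 were enriched (21.8%) and 1 depleted (1.28%), beside 15.7% and 19.0% of all genes. Their median was 0.99. Without Input replicate 1 9 were enriched, and with the length trend removed 5. Col7a1, the anchoring fibril collagen, had 2.78, a call lost without Input replicate 1 or 3 or YTHDF2 RIP replicate 1 or 3, and Fbn1, fibrillin of microfibrils, had 1.92.

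**Figure D5:**
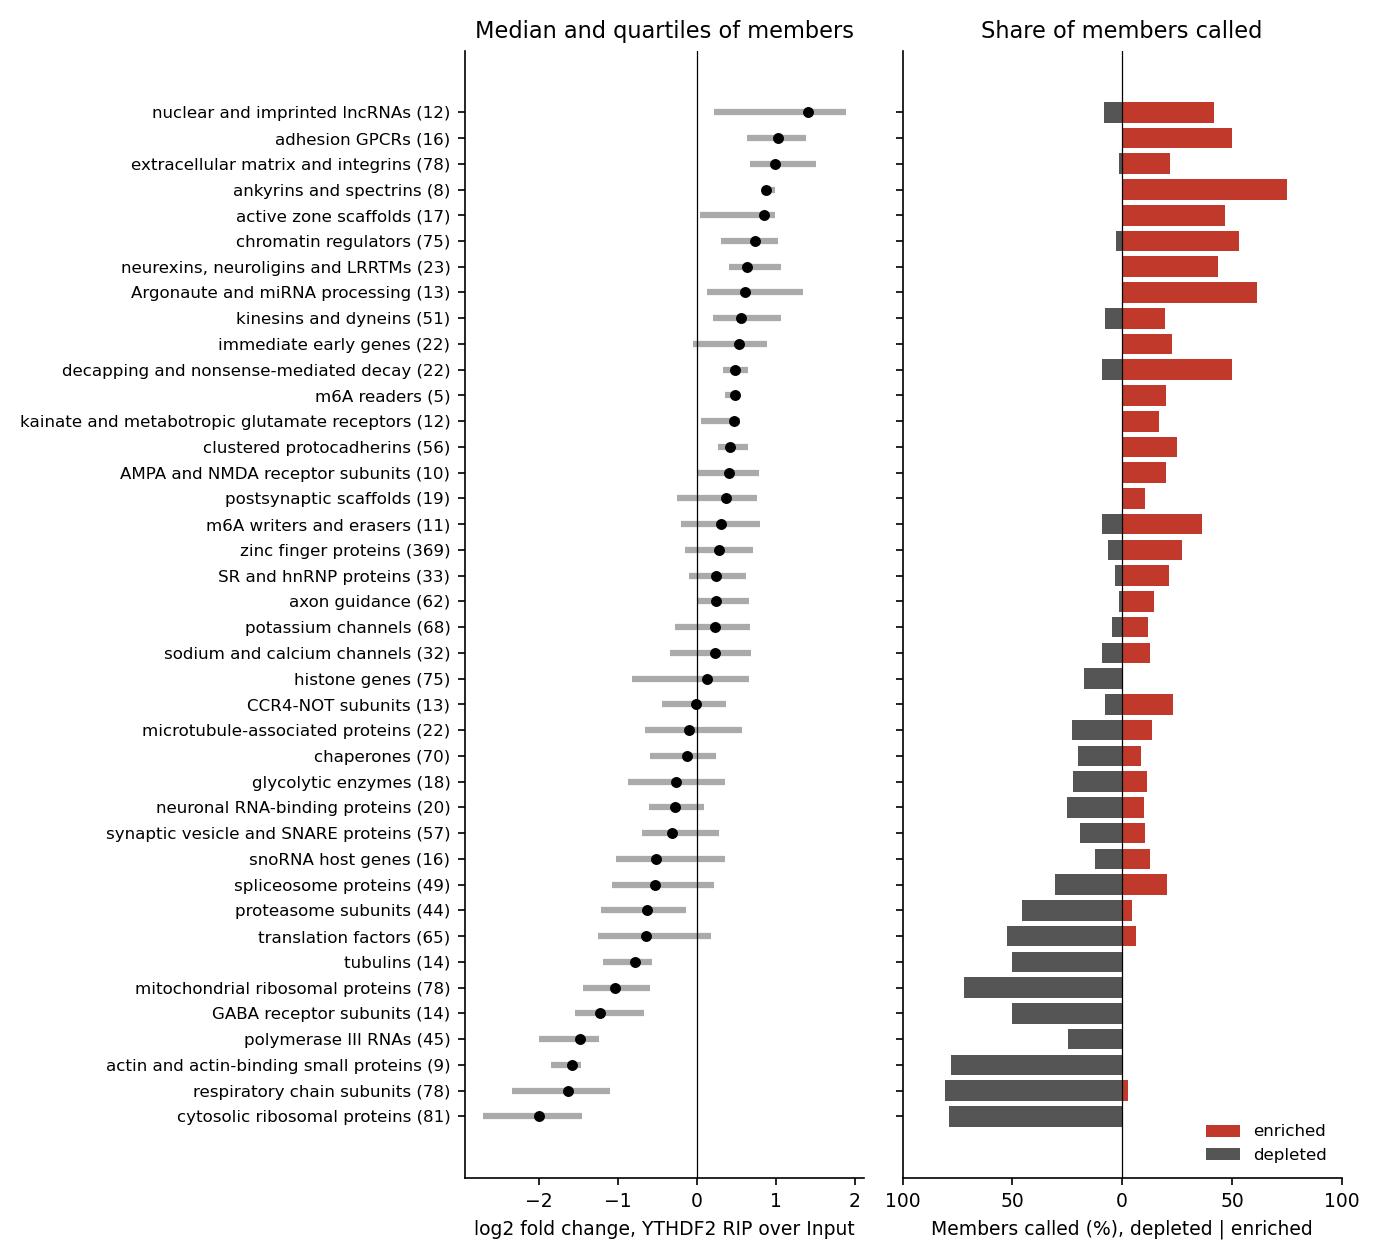
Gene lists ordered by the median log2 fold change of YTHDF2 RIP over Input, with the number of tested members in brackets. Left, median (point) and quartiles (grey line) of members. Right, percent of members called depleted (grey, to the left) or enriched (red, to the right), with the cytosolic ribosomal protein and respiratory chain lists at the depleted end and the adhesion receptors and matrix genes near the enriched end.

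The genes of the m6A and decay pathways themselves were modestly represented. Of the 5 YTH reader genes, Ythdf3 rose from 49.6, 44.1 and 42.0 CPM to 70.9, 65.0 and 71.1 (0.61 ± 0.22, adjusted p = 0.048, edgeR). This call was lost when any 1 of the 6 libraries was left out. It was also lost with the replicate block, with the length trend removed, with no filter and with scaling on protein-coding genes. Ythdf2 itself was at 38.6, 36.5 and 44.6 CPM in Input and 42.3, 44.6 and 40.7 in YTHDF2 RIP (0.09). Of 11 writers and erasers, Rbm15b (1.74), Virma (1.31), Rbm15 (1.00) and Alkbh5 (0.59) were enriched and the demethylase Fto was depleted (-0.84). The methyltransferase subunits Mettl3 (0.39) and Mettl14 (-0.37) did not pass the test. The call of Alkbh5 was lost without Input replicate 1 or 3 or YTHDF2 RIP replicate 1. Of 13 CCR4-NOT subunits 3 were enriched (23.1%) and 1 depleted (7.69%), beside 15.7% and 19.0% of all genes, with a median of -0.01. With the length trend removed none was enriched and 4 were depleted. Cnot1, the scaffold to which YTHDF2 binds, had 0.72. Of 22 decapping and nonsense-mediated decay genes 11 were enriched, led by Pan3 (1.05), and 2 depleted. Without Input replicate 1 6 were enriched, and with the length trend removed 2. Of 13 Argonaute and miRNA processing genes 8 were enriched and none was depleted, and with the length trend removed 4 and 2. Tnrc6c, a GW182 protein that links Argonaute to CCR4-NOT, went from 109, 113 and 99.5 CPM to 396, 413 and 424 (1.94 ± 0.20), and Dicer1 had 1.63. Among 20 neuronal RNA-binding proteins 5 (25%) were depleted and 2 (10%) enriched, beside 19.0% and 15.7% of all genes. Elavl1 was at -1.23, Rbfox1 at -1.21 and Elavl4 at -1.19. Without Input replicate 1, 2 of the 20 were depleted and 1 was enriched, and with the length trend removed 8 and 1. The call of Elavl1 was lost without any 1 of the 6 libraries, and that of Elavl4 without any but YTHDF2 RIP replicate 3. Both were also lost with the replicate block.

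The difference between YTHDF2 RIP and the other RIPs was tested in the same model at a fold change of at least 2. Compared with YTHDF1 RIP, 1045 genes (6.10%) were higher in YTHDF2 RIP and 1949 (11.4%) lower. Compared with YTHDF3 RIP, 676 (3.95%) were higher and 198 (1.16%) lower. Without any 1 of the 6 libraries of that comparison 110 to 360 were higher and 69 to 151 lower, with 110 and 72 without YTHDF3 RIP replicate 2. Without YTHDF1 RIP replicate 2, the genes higher than in YTHDF1 RIP numbered 1973. Genes higher in YTHDF2 RIP than in both numbered 209 (1.22%), of which 106 were enriched over Input and 24 depleted. Those lower than in both numbered 86 (0.502%), of which none was enriched and 40 were depleted against Input.

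Relative to the other RIPs, YTHDF2 RIP had less of the mRNAs with long 3′ untranslated regions and of longer mRNAs as a whole. Spearman's rho of the difference from YTHDF1 RIP was -0.428 with transcript length, -0.314 with 3′ untranslated length and -0.293 with coding length. From YTHDF3 RIP it was -0.390, -0.354 and -0.227. For coding lengths up to 500 nt the median log2 differences from YTHDF1 and YTHDF3 RIP were 0.30 and 0.42. Over 6000 nt they were -0.73 and -0.09. The median log2 difference from YTHDF1 RIP was 0.26 for 3′ untranslated regions of up to 250 nt and -0.79 for those over 4000 nt, and it fell at each step between. From YTHDF3 RIP it was 0.32 and -0.32 at the same ends. Among genes with coding lengths over 1000 and up to 1500 nt the same medians were 0.38 and -0.54 for YTHDF1 and 0.35 and -0.26 for YTHDF3. Genes lower in YTHDF2 RIP than in both other RIPs included Samd12 (-3.86 and -2.14 for YTHDF1 and YTHDF3), Ids, the lysosomal iduronate sulfatase (-2.67 and -1.83), Fut9, a fucosyltransferase (-3.49 and -1.74), and Frrs1l, an AMPA receptor assembly factor (-1.44 and -1.67). All 4 were depleted against Input too, a call that Frrs1l lost without Input replicate 1 or YTHDF2 RIP replicate 2 or 3. Ids went from 283, 213 and 172 CPM in Input to 52.4, 47.2 and 64.8 in YTHDF2 RIP. Against YTHDF3 RIP their calls were lost without 1 library, for Samd12, Ids and Fut9 when YTHDF2 RIP or YTHDF3 RIP replicate 1 or 2 was left out (for Ids and Fut9 also YTHDF2 RIP replicate 3) and for Frrs1l without YTHDF2 RIP replicate 2. They were named after their values were seen.

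Several lists of short RNAs held genes higher in YTHDF2 RIP than in YTHDF3 RIP. All 41 tested rRNA entries passed the test, as did 40 of the 45 genes of the polymerase III list, whose median difference was 5.83 on the log2 scale. Over all genes 3.95% did. Most of those 45 genes were 5S rRNA entries, so both counts largely hold the same genes. Reads on several places were counted at each, so these entries are not separate observations. Rny1 (1.89), Rny3 (0.90) and Bc1 (0.11) did not pass it, and none of 54 small nuclear RNAs was higher. Of 75 histone genes 38 were higher and none lower, and of 78 respiratory chain genes 28 were higher and none lower. Of 81 cytosolic ribosomal protein genes 22 were higher and none lower. Compared with YTHDF1 RIP, 1 of the 45 polymerase III genes, 1 of the 75 histone, 5 of the 78 respiratory chain and 4 of the 81 ribosomal protein genes were higher. Over all genes 6.10% were, so these lists lay near or below that share. In the other direction, of 23 neurexins, neuroligins and related proteins 13, of 56 clustered protocadherins 20 and of 75 chromatin regulators 25 were lower in YTHDF2 RIP than in YTHDF1 RIP. Over all genes 11.4% were lower.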

How the data were processed

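RNA was measured by stranded total RNA-seq of 3 libraries in each of 4 groups, Input and RIP of YTHDF1, YTHDF2 and YTHDF3. The deposited gene counts are whole numbers that the authors made by extracting molecular identifiers and removing duplicates with UMI-tools 1.1.1, trimming with cutadapt 3.4, aligning to mm10 with STAR 2.7.7a and counting exons with featureCounts 2.0.1, with strand and with reads on several places or genes counted at each. The gene models were Ensembl release 97, and symbols, classes and sequences were taken from GENCODE M21 on GRCm38, which matched 55480 of 55573 genes. Deposited tables of the authors' own comparisons, which hold fold changes and p-values, were not used.

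Genes with a mean of at least 10 normalised counts over the 12 libraries were tested with edgeR 4.0.16 (R 4.3.3, TMM scaling, quasi-likelihood test, Benjamini-Hochberg adjustment) in 1 model of the 4 groups, without a replicate block. Enriched or depleted against Input meant an adjusted p of at most 0.05 and a fold change of at least 1.25. Between RIPs the fold was at least 2. Levels are CPM, which are not scaled by length and are compared within a gene only. Class shares were compared with an exact permutation test. On simulated counts (17092 genes tested), 87 of 100 genes changed by 2 on the log2 scale and 11 of 100 changed by 1 were called. None had the wrong sign, and 5 unchanged genes were called. The simulation changed only these genes and gave all genes the same relative spread, whereas 34.7% of genes were called in the data. These shares therefore do not measure recovery in this comparison.

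Named genes were those with the highest and lowest log2 fold changes among called genes with a mean of at least 100 normalised counts over the 6 libraries and groups that did not overlap, in each gene class and gene list, and others were added after their values were seen. The members and gene lists were chosen with earlier results of these data known. Methods describe cultures from single litters and call the RIP replicates biological. Whether these came from separate litters is not given in the sources used here, so p-values measure the spread between these libraries. That spread may be technical in part. The comparisons with Input share the same Input libraries. Alternatives were other scalings, filters, DESeq2 1.42.0, removal of the length trend, a replicate block, leaving out overlapping genes and leaving out each library. Some genes are not reported here.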

Additional observations from a re-analysis of the deposited data

Results flagged for a closer look

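YTHDF2 RIP differed from both other RIPs in the same direction, by edgeR's test of the difference itself, for 22 of the genes named or examined. Values are log2 differences, first from YTHDF1 RIP and then from YTHDF3 RIP. Among short loci and their like, Gm23935 was higher by 3.64 and 6.73, Gm24270 by 3.61 and 6.68, Gm25911 by 3.85 and 6.71, Gm24187 by 3.16 and 6.80, Mir6236 by 2.60 and 6.59, Mir6240 by 4.54 and 7.73 and Lars2 by 3.70 and 6.57. Reads shared between the first 4 make them 1 observation rather than 4.

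Among other non-coding entries, the lncRNA Malat1 was higher by 4.28 and 2.83, the short entry Gm27694 inside it by 4.30 and 2.54, Gm47963, whose coding status is to be checked experimentally, by 4.45 and 1.90, and Firre, an X-linked lncRNA, by 3.05 and 1.37. Among mRNAs, Eln was higher by 2.93 and 4.35, Usp35 by 2.42 and 2.36, Rtl1 by 3.56 and 1.63, Hnrnpm by 1.38 and 2.07 and Ndufv1 by 1.19 and 1.68.

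Lower in YTHDF2 RIP were Gabrb2 (-2.65 and -1.90), Gabra2 (-1.68 and -1.55), Samd12 (-3.86 and -2.14), Ids (-2.67 and -1.83), Fut9 (-3.49 and -1.74) and Frrs1l (-1.44 and -1.67). Against YTHDF3 RIP the calls of Firre, Gm47963 and Gabra2 were lost when any 1 of the 6 libraries was left out. Those of Gabrb2, Ids, Fut9 and Rtl1 were lost without 5 of them, of Samd12 without 4, and of Malat1, Gm27694 and Frrs1l without 1. With the replicate block Firre, Gabrb2 and Samd12 were lost. Gm24187 did not pass with DESeq2 against either RIP. The cause of these differences was not tested.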

How the results depend on the processing

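Against Input, the alternatives called 1861 to 3164 genes enriched and 2412 to 3764 depleted, and under none of the 18 did a gene pass in the opposite direction. With scaling on protein-coding genes the median of all genes shifted by -0.11 on the log2 scale and 2185 genes were enriched against 3764 depleted, so enriched genes made up 36.7% of calls in place of 45.3%. With the length trend removed this share was 38.1%, and with no filter 35.8%. Leaving out each library gave 1888 to 2164 enriched and 2412 to 2643 depleted genes. Of 168 named genes called against Input, 109 were called under every setting run, 59 were lost under at least 1 and none reversed.

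Compared with YTHDF1 RIP, 2796 genes were higher and 1068 lower with library size alone, and leaving out each library gave 780 to 1973 higher. Compared with YTHDF3 RIP, the genes higher numbered 1043 with no filter and 299 with only both groups and a replicate block, and 110 to 360 without 1 library. The genes lower numbered 349 with DESeq2, 106 with the length trend removed and a block, 718 with library size alone, 769 with no filter, 429 with only both groups, 98 with these and a block, and 69 to 151 without 1 library.

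With genes that overlap on the same strand left out, the difference in share (percentage points) was 0.0401 for TEC, -0.507 for lncRNA, 11.9 for miRNA, -1.20 for miscellaneous RNA, -6.31 for protein-coding genes, -3.59 for pseudogenes, -0.00132 for ribozymes, -0.350 for snRNA and 6.46e-07 for snoRNA. Over protein-coding, lncRNA and pseudogene counts alone it was 2.14 for protein-coding genes and -3.73 for pseudogenes. For snoRNA it lay between -0.0106 and 0.00267 when 1 library was left out. Overlapping genes enter these shares more than once by construction, and the cause of the other changes was not tested.

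Replicate numbers did not pair the Input with the YTHDF2 RIP libraries. Deviations from the group means of same-numbered libraries correlated across genes at 0.178, -0.323 and -0.313, and Input replicate 3 went best with YTHDF2 RIP replicate 2 (0.560). Same-numbered Input and YTHDF3 RIP libraries correlated at 0.829, 0.528 and 0.804, YTHDF2 and YTHDF1 RIP at 0.0590, 0.544 and 0.348, and YTHDF2 and YTHDF3 RIP at 0.170, -0.319 and -0.347. The replicate block groups libraries by these numbers. A call lost or kept with it against Input or YTHDF3 RIP is therefore not one adjusted for a shared lysate. With the replicate block 2643 genes were enriched and 3120 depleted against Input. Depth limits the shortest RNAs, of which Rny1 and Vaultrc5 had very few counts in YTHDF2 RIP.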
